A study of Mus musculus with 9 samples.

Results

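Atf4 and 9 of its known targets (Ddit3, Ddit4, Trib3, Chac1, Sesn2, Slc7a11, Asns, Vldlr and Psat1) were followed across Cdk8 knockout clones of a mouse intestinal cell line and the line they came from. The 10 genes were matched by symbol to the table's Entrez gene IDs; all 10 were found among its 28059 IDs, and all 10 passed the filter on low values. YAMC is a mouse intestinal epithelial line; the labels give its tissue as small intestine, whereas such cells are generally described as conditionally immortalized colon cells. The groups were Cdk8 knockout clone 19, Cdk8 knockout clone 1 (both labelled Cdk8 -/- and made with CRISPR) and the parental wild-type cells, with 3 libraries each, all grown at 32 °C and harvested while dividing. Each knockout group is 1 clone and no wild-type clone was analysed here, so effects of Cdk8 loss and of growing a line from 1 cell cannot be told apart. The labels do not say whether the 3 libraries of a group were separate cultures, so the p-values reflect the spread of these libraries alone, which may be technical.

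ATF4 is the transcription factor at the end of the integrated stress response. Kinases that sense amino acid shortage, misfolded protein in the endoplasmic reticulum, viral RNA or lack of haem phosphorylate the initiation factor eIF2; most translation then slows, while the Atf4 message is translated better through its upstream reading frames. ATF4 pairs with C/EBP and other bZIP proteins on a composite C/EBP-ATF element and turns on genes of amino acid uptake, amino acid and glutathione metabolism, and feedback or cell death. RNA levels of its targets can reflect the output of this pathway, but other factors also control several of them. They do not show eIF2 phosphorylation or ATF4 protein, neither of which was measured here.

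Start windows of the 10 genes, from 250 bases before to 50 after an annotated start (RefSeq, GRCm38.p6), were searched on both strands for TGATGNAA, a common form of the C/EBP-ATF element. The element was present in 5 of the 10 genes: Trib3, Chac1, Slc7a11, Asns and Vldlr. By comparison, 229 of 9002 tested genes with a window held it (2.54%). A match is a description of the letters and not evidence of binding. The full cyclic AMP response element TGACGTCA was in the windows of 0 of the 10 genes, and of 3.70% of tested genes. Slc7a11 and Chac1 upstream sequence is shown because their matches lie before the start with no annotated exon over them, at chr3:50443615-50443863 (minus strand) and chr2:119350992-119351228 (plus strand). For Asns (chr6:7693214-7693243, minus strand), Vldlr (chr19:27216809-27216838, plus strand, at its second annotated start) and Trib3 (chr2:152344028-152344057, minus strand) the 30 bases around the match are shown. Each runs 5′ to 3′ on the gene's strand, and capitals mark the element.
Slc7a11: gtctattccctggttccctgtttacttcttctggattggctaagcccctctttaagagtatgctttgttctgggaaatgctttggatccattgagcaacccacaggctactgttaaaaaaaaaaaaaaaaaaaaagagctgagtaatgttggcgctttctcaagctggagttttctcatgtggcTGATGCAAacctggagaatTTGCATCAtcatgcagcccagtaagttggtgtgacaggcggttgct
Chac1: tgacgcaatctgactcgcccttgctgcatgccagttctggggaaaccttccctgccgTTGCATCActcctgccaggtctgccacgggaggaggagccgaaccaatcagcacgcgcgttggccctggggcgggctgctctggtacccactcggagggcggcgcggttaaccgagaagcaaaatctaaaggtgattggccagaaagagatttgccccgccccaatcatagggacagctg
Asns: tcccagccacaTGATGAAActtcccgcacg
Vldlr: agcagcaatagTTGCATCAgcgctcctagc
Trib3: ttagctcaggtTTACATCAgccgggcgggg

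Slc7a11 was the only member with more than 1 match. Its elements began 66 and 47 bases before the start, in opposite orientation, as the sequence shows. The Asns element began 23 bases before the start, the Chac1 element 193 bases before it, the Vldlr element 200 bases before its second start, and the Trib3 element 14 bases after its RefSeq start, in bases that its GENCODE transcripts did not hold.

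**Figure D1:**
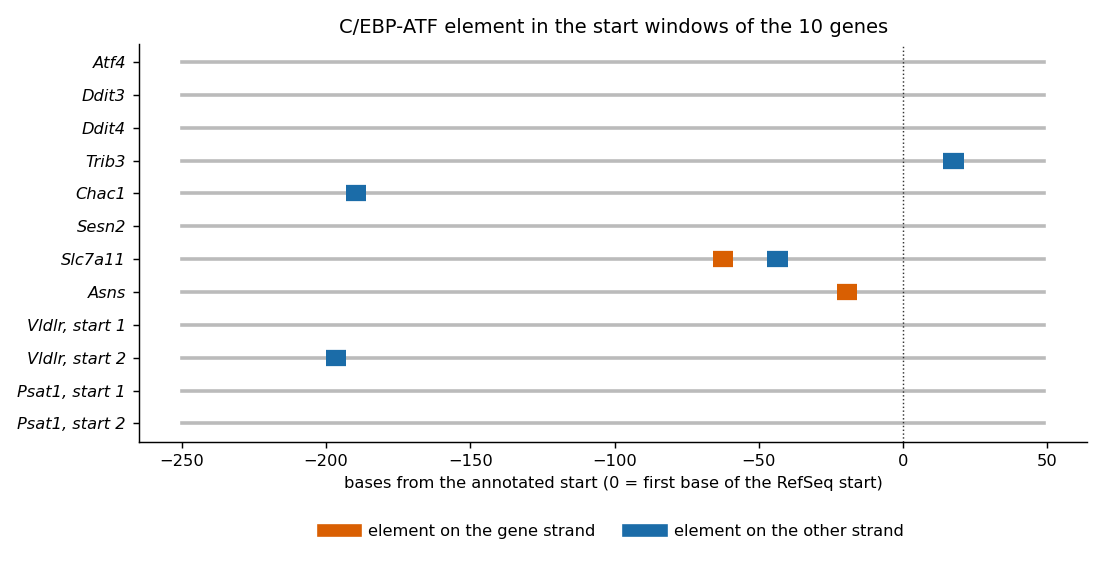
Position of the element TGATGNAA in the start windows of the 10 genes, in bases from the annotated start; orange marks a match on the gene's strand and blue on the other strand. Matches stand in 5 genes, with a pair in Slc7a11; Vldlr and Psat1 have windows for 2 annotated starts.

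Depth was estimated from the lowest values, where 1 read sets the step, at 22.5 to 39.8 megareads per library. Log2 values correlated at 0.997 to 0.998 within groups and at 0.963 to 0.968 between a clone and the parental cells, computed over the 12568 genes tested (genes do not count as replicates). Between clone 19 and clone 1 they correlated at 0.99 to 0.993, so the clones were more like each other than like the parental cells. Cdk8 itself averaged 10.4 RPKM in clone 19, with 10.98 RPKM in clone 1, against 17.6 RPKM in parental cells; it was lower in both clones but its RNA was not lost, and a gene-level value does not show which part was edited. Of 10 epithelial markers, Krt8, Krt18, Krt19 and Cdh1 passed the filter. Cdh1 did so through clone 19 alone, at 1.25 RPKM against 0.52 RPKM in clone 1 and 0.55 RPKM in parental cells. Epcam, Vil1, Cdx1, Cdx2, Cldn7 and Lgr5 stayed below 1 RPKM in all 9 libraries, so defining markers of intestinal epithelium were near or at 0. The 7 fibroblast and mesenchymal markers were all measured. The summed level of the epithelial list was nearly all Krt8, Krt18 and Krt19. It ran from 969 to 976 RPKM in clone 19 and 986 to 1036 RPKM in clone 1, against 613 to 632 in parental cells. The summed level of the mesenchymal list ran from 1307 to 1378 RPKM in clone 19 and from 1567 to 1607 RPKM in clone 1. In parental cells it ran from 1777 to 1838 RPKM. Most of that sum was Vim; Col3a1 went the other way, at 183 and 194 RPKM against 152 RPKM, as did Col1a2 in clone 1 (90.3 against 63.7 RPKM). Of 6 immune and 4 endothelial markers, 5 and 3 stayed below 1 RPKM in all 9 libraries. The part of these markers in the results that follow was not tested.

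All 10 genes were lower in both clones than in the parental cells, and every library of both clones lay below every parental library for all 10. Levels are in RPKM (reads scaled by gene length and by the size of the library), and fold changes are differences in log2(RPKM + 0.5), given with their standard error. Calls were made at a limit of 0.05 on limma's p, adjusted by Benjamini-Hochberg over all tested genes. The background was high: 69.0% of tested genes were called in clone 19 and 72.4% in clone 1, with 32.3% and 32.6% called lower. Both clones are set against the same 3 parental libraries, so these are not independent comparisons. Lower calls in both clones were made for 25.8% of all tested genes, and 27.1% had every clone library below every parental one. The median log2 fold change of the 10 genes was -0.37 in clone 19 and -0.66 in clone 1, beside 0.02 and 0.03 over all tested genes. At a 2-fold limit the count was 1 of 10 in clone 19 and 3 of 10 in clone 1, where 2.32% and 2.67% of tested genes were called lower by at least that much.

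**Figure D2:**
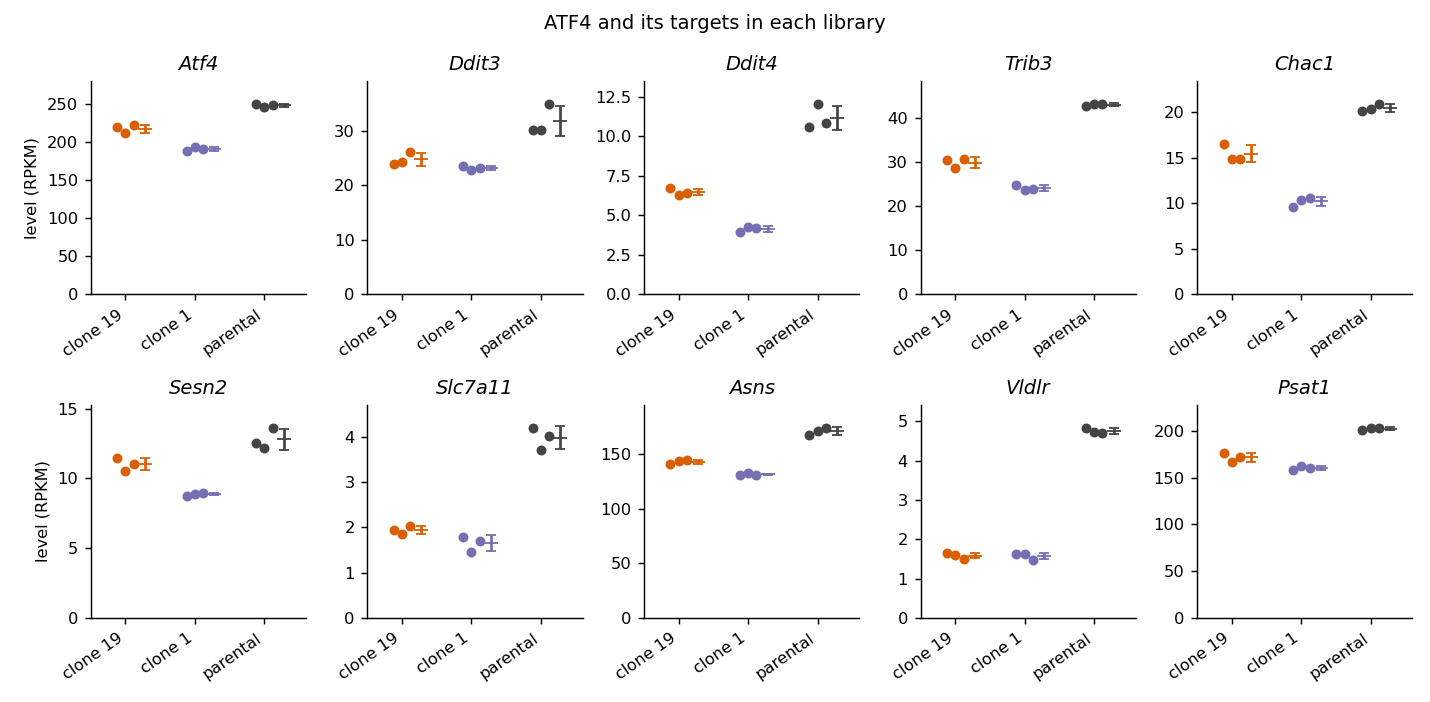
Level of each gene (RPKM, linear axis from 0) in the 3 libraries of clone 19, clone 1 and the parental cells; points are libraries, and the bar beside them is the mean with its SD. Parental libraries are highest in every panel, and clone 1 is lowest in 9 of 10; in the Vldlr panel the clones overlap.

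Atf4, the factor itself, was among the most abundant messages, above 98.5% of tested genes. It stood at 219, 212 and 222 RPKM in clone 19, at 188, 193 and 191 RPKM in clone 1, and at 250, 246 and 249 RPKM in parental cells. The 3 groups did not overlap. Its log2 fold change came to -0.19 ± 0.02 in clone 19 (SE, n = 3 against 3, adjusted p = 8.0e-06, limma) and -0.38 ± 0.02 in clone 1 (adjusted p = 2.6e-08, limma). This was the smallest change of the 10 in clone 19 and one of the 3 smallest in clone 1.

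Among targets that act in feedback and cell fate, Trib3, a pseudokinase that binds ATF4 and restrains it, fell. Its level was 30.4, 28.5 and 30.6 RPKM in clone 19, with 24.8, 23.6 and 23.9 RPKM in clone 1, against 42.6, 43.1 and 43.1 RPKM in parental cells. The fold changes were -0.52 ± 0.03 in clone 19 and -0.82 ± 0.03 in clone 1 (adjusted p = 6.7e-08 and 1.6e-09, limma), with no overlap between the 3 groups. Ddit3 encodes CHOP, a bZIP factor that promotes cell death under prolonged stress. It measured 23.9, 24.4 and 26.1 RPKM in clone 19, with 23.5, 22.7 and 23.2 RPKM in clone 1, against 30.1, 30.2 and 34.96 RPKM in parental cells, where 1 library stood above the others. Ddit3 was called lower (-0.35 ± 0.05 and -0.45 ± 0.05, adjusted p = 0.00015 and 2.0e-05, limma), but the 50 nearest tested genes on chromosome 10 were lower too, by -0.34 in clone 19 and -0.37 in clone 1. With that shift subtracted its change was -0.01 in clone 19 (adjusted p = 0.894, limma) and -0.08 in clone 1 (adjusted p = 0.212, limma), and neither was called. A fall beyond that of its neighbourhood was thus not shown for this gene.

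Chac1 and Slc7a11 stand on opposite sides of glutathione balance. Chac1, an enzyme that breaks down glutathione, measured 16.5, 14.9 and 14.8 RPKM in clone 19, with 9.60, 10.4 and 10.6 RPKM in clone 1, against 20.1, 20.3 and 20.9 RPKM in parental cells. The 3 groups were well separated, and the fold changes were -0.40 ± 0.05 and -0.97 ± 0.05 (adjusted p = 2.0e-05 and 1.2e-08, limma). Slc7a11, the cystine importer that supplies cysteine for glutathione, was low throughout, above only 14.7% of tested genes. Its libraries held 1.94, 1.86 and 2.04 RPKM in clone 19, with 1.79, 1.46 and 1.71 RPKM in clone 1, against 4.21, 3.71 and 4.03 RPKM in parental cells. The change of -0.87 ± 0.07 in clone 19 and -1.06 ± 0.07 in clone 1 (adjusted p = 1.0e-06 and 1.8e-07, limma) grew to -1.23 and -1.35 with neighbouring genes subtracted, since those were higher by 0.35 and 0.29. Both the gene that spends glutathione and the one that feeds its synthesis were thus lower.

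Ddit4 and Sesn2 encode inhibitors of mTORC1, the growth kinase complex. Ddit4 (REDD1) measured 6.71, 6.31 and 6.41 RPKM in clone 19, with 3.93, 4.25 and 4.21 RPKM in clone 1, against 10.6, 12.1 and 10.8 RPKM in parental cells. Its change was -0.74 ± 0.05 and -1.33 ± 0.05 (adjusted p = 3.2e-07 and 2.6e-09, limma); genes next to it on chromosome 10 were lower by -0.24 and -0.21, and with them subtracted the change was -0.50 and -1.12, both still called. Sesn2, a leucine sensor, measured 11.5, 10.6 and 11.1 RPKM in clone 19, with 8.78, 8.88 and 8.97 RPKM in clone 1, against 12.6, 12.2 and 13.7 RPKM in parental cells. The gap between clone 19 and the parental cells was small but without overlap (-0.21 ± 0.04, adjusted p = 0.0018, limma), and that of clone 1 was larger (-0.50 ± 0.04, adjusted p = 1.7e-06, limma).

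The biosynthetic targets were abundant and changed less than most of the 10. Asns, which makes asparagine, stood at 141, 143 and 145 RPKM in clone 19, with 131, 132 and 131 RPKM in clone 1, against 168, 171 and 174 RPKM in parental cells. Psat1, the transaminase of serine synthesis, stood at 177, 167 and 172 RPKM in clone 19, with 158, 163 and 161 RPKM in clone 1, against 201, 204 and 203 RPKM in parental cells. Both were called lower in clone 19 (-0.26 ± 0.02 and -0.23 ± 0.02, adjusted p = 3.8e-07 and 2.6e-06, limma) and in clone 1 (-0.38 ± 0.02 and -0.33 ± 0.02, adjusted p = 1.5e-08 and 1.3e-07, limma). Genes near both were higher in the clones, and with these subtracted the falls were larger: -0.39 for Asns and -0.45 for Psat1 in clone 19, and -0.56 for each in clone 1.

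Vldlr, a lipoprotein receptor that ATF4 induces, had the largest change of the 10 in clone 19, and in clone 1 stood level with Ddit4. It measured 1.65, 1.60 and 1.51 RPKM in clone 19, with 1.63, 1.63 and 1.47 RPKM in clone 1, against 4.85, 4.73 and 4.72 RPKM in parental cells. The change was -1.34 ± 0.06 in each clone (adjusted p = 4.2e-09 and 3.6e-09, limma). The pseudocount understates changes at such levels, and with a pseudocount of 0.1 the change was -1.53 in clone 19 and -1.54 in clone 1, still called in both.

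**Figure D3:**
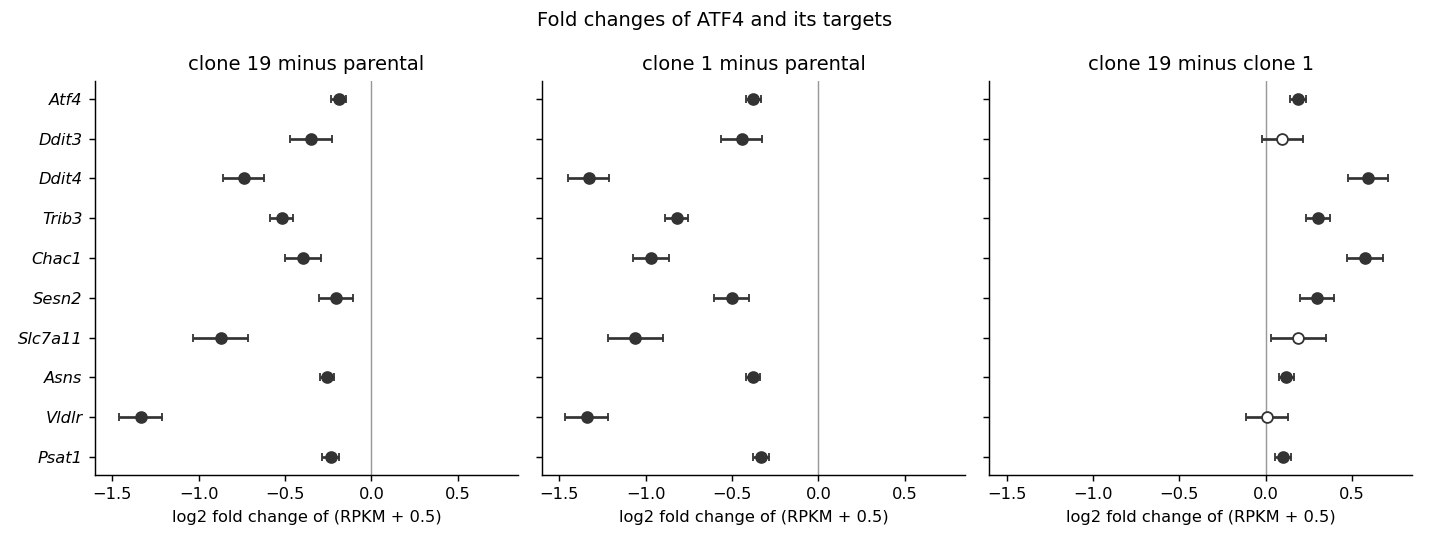
Log2 fold change of each gene with its 95% interval for clone 19 against parental, clone 1 against parental, and clone 19 against clone 1; filled points were called. All points of the first 2 panels are below 0, and 7 of 10 in the third are called above 0.

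The clones differed in how far the genes fell. For 9 of the 10 genes every clone 1 library lay below every clone 19 library and those below every parental one, an order found in 7.64% of tested genes; Vldlr was the exception. In the direct comparison of clone 19 with clone 1, 7 genes were called higher in clone 19 and 0 lower, where 43.0% of tested genes were called, 18.5% higher and 24.5% lower; at 2-fold or more the count was 0, beside 0.446% of tested genes. Ddit4 and Chac1 differed most, at 0.59 ± 0.05 and 0.57 ± 0.05 (adjusted p = 1.5e-05 and 8.4e-06, limma). Trib3 and Sesn2 both differed by 0.30 (adjusted p = 3.4e-05 and 0.00043, limma), Sesn2 by 0.18 with neighbouring genes subtracted (adjusted p = 0.0134, limma), Atf4 by 0.19 ± 0.02 (adjusted p = 4.9e-05, limma), Asns by 0.12 and Psat1 by 0.10 (adjusted p = 0.00055 and 0.0041, limma). Slc7a11 (0.19, 95% interval 0.03 to 0.35, adjusted p = 0.056, limma) and Ddit3 (0.10, -0.02 to 0.21, adjusted p = 0.18, limma) did not pass. Slc7a11 did pass without clone 1 replicate 1 (0.24, adjusted p = 0.0347, limma) and without the mean-variance trend (adjusted p = 0.0443, limma). For Vldlr the difference was 0.01 (-0.12 to 0.13, adjusted p = 0.92, limma), so a difference between the clones larger than this interval was not seen.

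**Figure D4:**
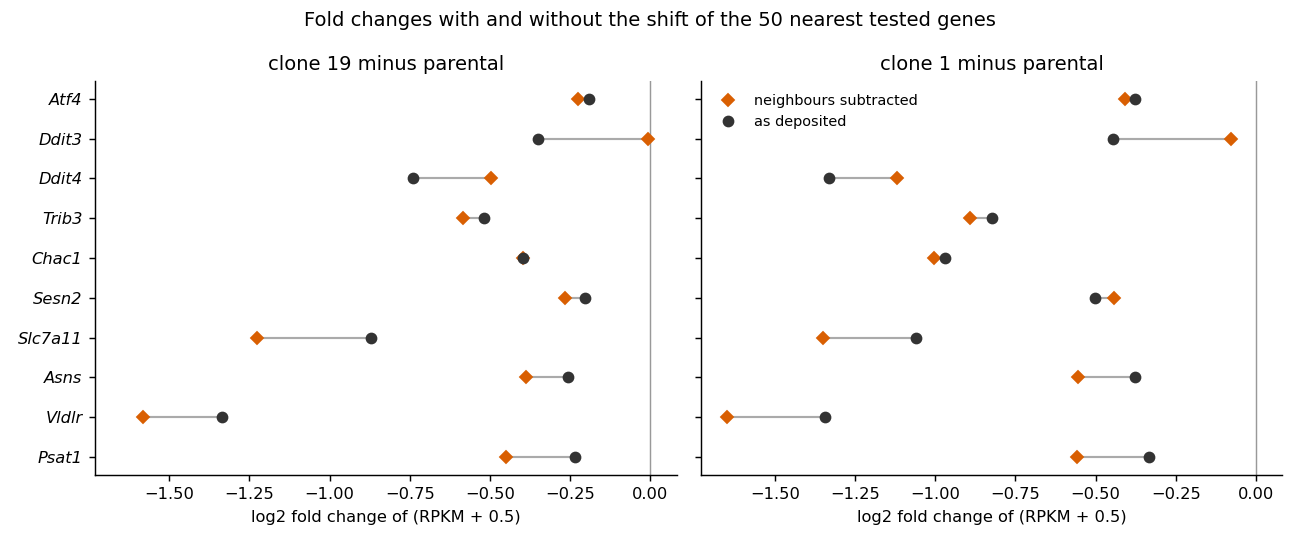
Log2 fold change of each gene in clone 19 and clone 1 against parental cells, as deposited (circles) and after subtracting the median shift of the 50 nearest tested genes (diamonds). Ddit3 moves to near 0, at -0.01 and -0.08; the other 9 stay below 0.

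The genes whose profile over the 9 libraries was nearest to that of Atf4 were Entrez 100861991, Tef (a bZIP factor of the PAR family) and Entrez 640611, at root mean square distances of 0.019, 0.019 and 0.025 in centred log2 units. Entrez 100861991 averaged 247 RPKM in clone 19, with 220 RPKM in clone 1, against 284 RPKM in parental cells, and Entrez 640611 averaged 262 and 238 RPKM, against 303 RPKM. Both IDs lack a name in the reference tables used, and whether they share reads with Atf4 was not tested. Psat1 and Asns were the nearest members (0.040 each), and Vldlr the farthest (0.51). Among the 12568 tested genes, Psat1 ranked 39, Asns 43, Sesn2 368 and Ddit3 938 by nearness to Atf4. Trib3 ranked 5304, Chac1 8018, Slc7a11 10262, Ddit4 11161 and Vldlr 11862, so these were not near it. The distance also grows with the size of a gene's change.

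Upstream of ATF4, the 4 eIF2 kinases went different ways. Eif2ak2 (PKR, the sensor of double-stranded RNA) fell, at 26.9 ± 0.69 RPKM in clone 19, with 25.2 ± 0.79 RPKM in clone 1, against 34.4 ± 0.75 RPKM in parental cells (SD, n = 3 each; log2 fold changes of -0.35 and -0.44, adjusted p = 1.6e-06 and 2.1e-07, limma). Genes next to it were lower by -0.13 and -0.21, and with these subtracted its changes were -0.22 and -0.23, both still called. Eif2ak4 (GCN2, the sensor of uncharged tRNA) fell as well, at 4.55 ± 0.14 and 4.80 ± 0.115 RPKM against 6.01 ± 0.21 RPKM (-0.37 and -0.30, adjusted p = 2.2e-05 and 0.00010, limma). Eif2ak3 (PERK, the endoplasmic reticulum sensor) rose, at 6.44 ± 0.22 and 5.81 ± 0.23 RPKM against 4.97 ± 0.20 RPKM (0.34 and 0.21, adjusted p = 5.6e-05 and 0.0020, limma), but with neighbouring genes subtracted the call in clone 1 was lost (0.11, adjusted p = 0.051, limma). Eif2ak1 (HRI, the haem-regulated kinase) measured 0.06 in clone 19 (adjusted p = 0.055, limma); clone 1 was higher by 0.09 (adjusted p = 0.0058, limma). By quantile normalization it passed in neither clone (0.02 and 0.03), and with neighbouring genes subtracted in both (0.14 and 0.17). Of 8 subunits of eIF2 and its exchange factor eIF2B, 3 rose in clone 19 (1 fell) and 4 rose in clone 1 (2 fell), with medians of 0.04 and 0.09, where 36.7% and 39.8% of tested genes were called higher. In clone 19, 3 rose and 3 fell by median-ratio and by quantile scaling; with neighbouring genes subtracted, 2 rose in clone 19 (3 fell) and 6 rose in clone 1 (2 fell). Eif2s3x rose by 0.23 and 0.35, but its call in clone 19 was lost with neighbouring genes subtracted (0.15, adjusted p = 0.081, limma). Eif2s1 (the subunit that is phosphorylated) rose by 0.19 and 0.21, or by 0.12 and 0.11 with neighbouring genes subtracted, and Eif2b1 by 0.11 and 0.21. Of 5 phosphatase subunits, Ppp1r15a (GADD34, the stress-induced subunit and itself an ATF4 target) fell by 0.16 in clone 19 and by 0.30 in clone 1, to 9.84 ± 0.50 and 8.87 ± 0.26 RPKM against 11.1 ± 0.65 RPKM; in clone 19 it did not pass without parental replicate 1 (-0.13, adjusted p = 0.058, limma). Of the others 3 were called higher in each clone, but 2 and 1 by median-ratio scaling and 1 and 0 by quantile normalization. The catalytic subunit Ppp1ca measured 0.15 and 0.07, but 0.02 and -0.03 by quantile normalization, where it passed in neither clone. Ppp1cc, another, measured 0.16 and 0.07; its call in clone 19 was lost by median-ratio scaling (0.14, adjusted p = 0.051, limma).

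Of 10 partners and related bZIP factors, 8 were tested, and 4 fell in clone 19 and 6 in clone 1, with 0 called higher in either. Over all tested genes, 32.3% and 32.6% were called lower. Atf5, which stress regulates much as it does Atf4, had 28.8 ± 1.1 RPKM in clone 19, with 23.4 ± 0.67 RPKM in clone 1, against 33.0 ± 1.1 RPKM (-0.19 and -0.49). Nfe2l2 (NRF2, the oxidative stress factor) fell by 0.27 and 0.32, and Nfe2l1 by 0.29 and 0.26. The tested genes next to Nfe2l2 were lower by -0.20 in both clones; with these subtracted its changes were -0.06 in clone 19 (adjusted p = 0.066, limma), no longer called, and -0.12 in clone 1 (adjusted p = 0.0029, limma).

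Enzymes of serine, glycine and one-carbon metabolism fell broadly. Of 10 tested, 8 fell and 1 rose in each clone, with medians of -0.30 and -0.65. The shares called lower over all tested genes were 32.3% in clone 19 and 32.6% in clone 1. Aldh1l2, a mitochondrial folate enzyme, averaged 4.16 ± 0.375 RPKM in clone 19, with 2.999 ± 0.193 RPKM in clone 1, against 15.6 ± 0.408 RPKM in parental cells (-1.79 ± 0.06 and -2.20 ± 0.06, adjusted p = 9.5e-10 and 2.2e-10, limma). Mthfd1l, of the same mitochondrial pathway, averaged 17.1 ± 0.36 and 17.4 ± 0.16 RPKM against 32.9 ± 0.51 RPKM (-0.93 and -0.90). Shmt2, the mitochondrial enzyme that turns serine into glycine, averaged 78.8 ± 1.1 and 73.5 ± 3.4 RPKM against 139 ± 1.5 RPKM (-0.82 and -0.92). Genes next to Shmt2 were lower by -0.33 and -0.36, which leaves -0.49 and -0.56. Aldh1l2 and Mthfd1l lie on chromosome 10 as Shmt2 does. Genes next to Aldh1l2 were lower by -0.28 and -0.26, and genes next to Mthfd1l by -0.22 and -0.17. With neighbouring genes subtracted, 9 of the 10 enzymes fell and 0 rose in each clone, with medians of -0.49 and -0.68. Of 5 tested genes of transsulfuration and transamination, 4 fell and 1 rose in each clone. Cth, which makes cysteine, averaged 12.2 ± 0.35 and 8.69 ± 0.22 RPKM against 24.3 ± 0.12 RPKM (-0.97 and -1.44, adjusted p = 6.0e-10 and 4.3e-11, limma), Pck2 fell by 0.46 and 0.71, and Bcat1, which starts the breakdown of branched-chain amino acids, by 0.84 and 0.73.

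Amino acid transporters were mixed. Of 8 tested, 5 fell in clone 19 (2 rose) and 4 fell in clone 1 (2 rose). For these and the next lists, the shares over all tested genes were 32.3% and 32.6% lower, and 36.7% and 39.8% higher. Slc6a9, a glycine transporter, averaged 10.2 ± 0.32 RPKM in clone 19, with 6.27 ± 0.10 RPKM in clone 1, against 18.9 ± 0.18 RPKM in parental cells (-0.86 and -1.52, adjusted p = 2.1e-09 and 3.9e-11, limma). Slc1a4, a carrier of small neutral amino acids, fell by 0.52 and 0.88, and Slc38a2, the glutamine carrier SNAT2, by 0.48 and 0.59. With neighbouring genes subtracted, 7 fell in clone 19 (1 rose) and 5 fell in clone 1 (0 rose). Of 20 cytosolic aminoacyl-tRNA synthetases, 15 fell in clone 19 (3 rose) and 14 fell in clone 1 (4 rose), with medians of -0.23 and -0.16. Wars, for tryptophan, fell by 0.80 and 0.70, and averaged 59.1 ± 0.88 and 63.5 ± 1.3 RPKM against 104 ± 3.2 RPKM; Farsa fell by 0.59 and 0.62 and Vars by 0.41 and 0.71, where genes next to Farsa were lower by -0.43 and -0.48 and genes next to Vars by -0.18 and -0.42. With these subtracted Farsa stood at -0.17 and -0.14 and Vars at -0.22 and -0.28, all still called. Of 14 tested genes among 16 other stress-induced ATF4 targets, 9 fell and 4 rose in each clone, and with neighbouring genes subtracted 8 fell in clone 19 (2 rose) and 10 fell in clone 1 (1 rose). These counts include Fgf21, which passed the filter on low values through clone 19 alone. Stc2, a secreted stress-induced glycoprotein, averaged 1.63 ± 0.13 and 1.90 ± 0.175 RPKM against 5.92 ± 0.085 RPKM (-1.59 and -1.42, adjusted p = 4.8e-09 and 1.0e-08, limma). Eif4ebp1, the 4E-BP1 repressor of cap-dependent translation, fell by 0.73 and 0.95, and the bZIP factor Jdp2 by 0.80 and 0.85.

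**Figure D5:**
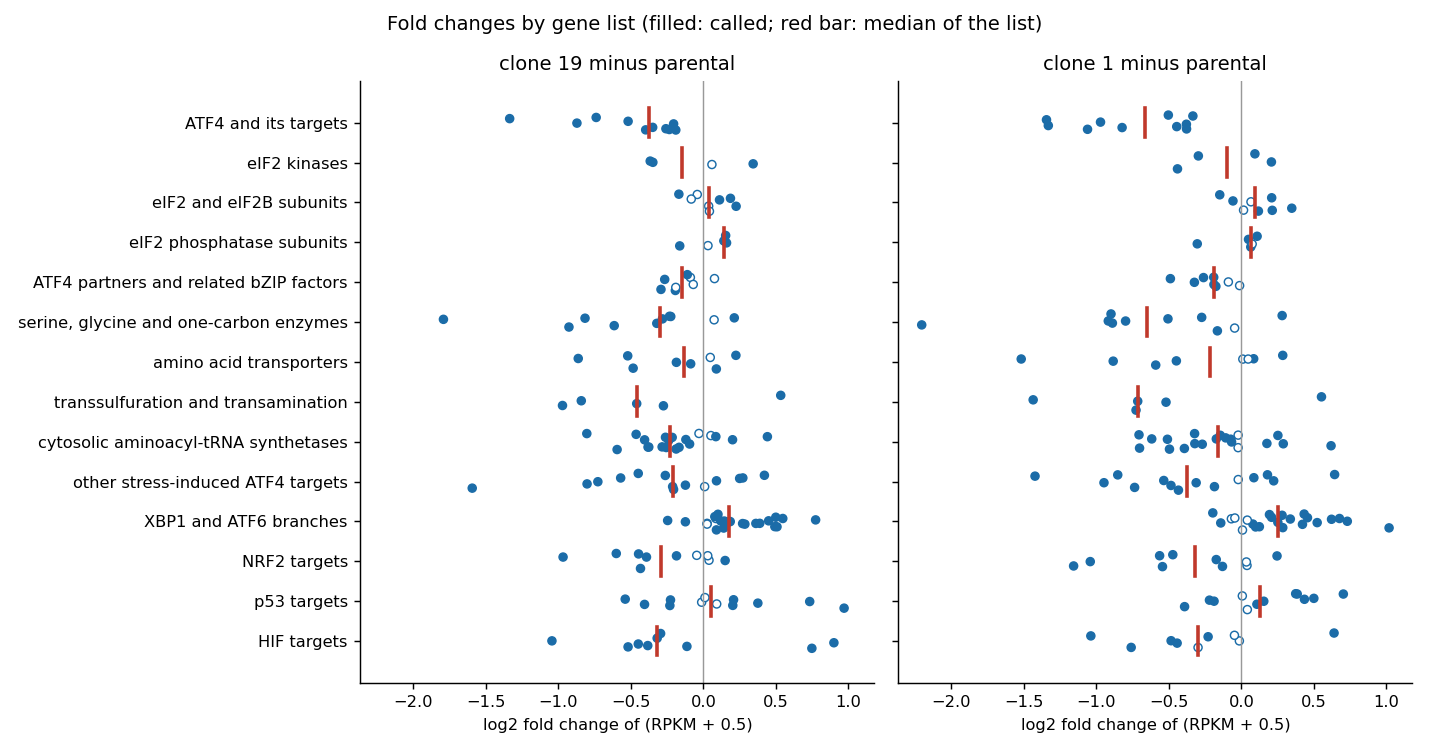
Log2 fold change of every tested gene in each list for clone 19 and clone 1 against parental cells; filled points were called and the red bar is the list's median. The 10 genes lie wholly below 0, while the XBP1 and ATF6 list has its median above 0, at 0.18 and 0.25.

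Most tested genes of the other unfolded protein branches went the other way. Of 23 tested genes of the XBP1 and ATF6 branches, which expand the folding capacity of the endoplasmic reticulum, 18 rose in clone 19 (2 fell) and 17 rose in clone 1 (2 fell), where 36.7% and 39.8% of tested genes were called higher. The medians were 0.18 and 0.25. The genes of largest mean change in the list were Xbp1, Canx and Ern1, so they do not stand for the rest. Xbp1 rose by 0.77 and 1.02, Canx (the chaperone calnexin) by 0.49 and 0.73, and Ern1 (IRE1, the kinase that splices Xbp1) by 0.55 and 0.62. With neighbouring genes subtracted, Xbp1 was higher by 0.44 and 0.56 and Ern1 by 0.36 and 0.37. By quantile normalization 14 rose in each clone, with 4 and 5 falling. Among genes with a start window, the element TGATGNAA was in 0 of 19 of these genes, beside 2.54% of tested genes. It was in 5 of 13 tRNA synthetases, 4 of 11 other stress-induced targets, 2 of 4 genes of transsulfuration and transamination, 1 of 8 one-carbon enzymes, 1 of 5 transporters, 1 of 8 bZIP factors and 1 of 7 subunits of eIF2 and eIF2B. It was in 0 of 4 kinases, 0 of 3 phosphatase subunits, 0 of 7 NRF2, 0 of 10 p53 and 0 of 8 HIF targets.

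Several of the 10 genes are also controlled by other stress factors: Slc7a11 by NRF2, Sesn2 by p53 and Ddit4 by HIF. Of 10 NRF2 targets, 6 fell in clone 19 (1 rose) and 7 fell in clone 1 (1 rose). Over all tested genes, 32.3% and 32.6% were called lower. Txnrd1 fell by 0.97 and 1.04, with the genes next to it lower by -0.30 and -0.29, Nqo1 by 0.43 and 1.16, and Srxn1 by 0.60 and 0.56. Of 12 p53 targets, 5 rose in clone 19 (4 fell) and 7 rose in clone 1 (3 fell), where 36.7% and 39.8% of tested genes were called higher and 32.3% and 32.6% lower. Median-ratio scaling gave 4 that rose and 4 that fell in clone 19. The medians of this list were 0.05 in clone 19 and 0.13 in clone 1. Its genes of largest mean change do not stand for the rest. Of these, Btg2 rose by 0.97 and 0.70, Ccng1 by 0.73 and 0.39, and Plk2 by 0.38 and 0.50. Of 9 tested HIF targets, 7 fell in clone 19 (2 rose) and 5 fell in clone 1 (1 rose); Egln3 rose (0.90 and 0.64) and Pdk1 fell (by 0.52 and 0.76), with genes next to it lower by -0.26 and -0.27 and its change at -0.26 and -0.49 once these were subtracted. The HIF counts include 2 genes that passed the filter on low values through 1 group alone and so had to differ. Bnip3 passed through the parental cells, at 0.290 and 0.300 RPKM in clones 19 and 1 against 1.13 RPKM, and Car9 through clone 19. The part of these factors in the levels of the 10 genes was not tested.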

How the data were processed

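Expression was measured by RNA sequencing in 9 libraries. Per the labels' protocols, RNA was isolated with an RNA-easy kit and prepared with TruSeq reagents. The authors deposited RPKM values for Entrez gene IDs, 1 column a library. The submitters' processing notes name GSNAP, DESeq and the build NCBIM37; sources used here give no versions, annotation, counting rule or use of strand. RPKM shifts with RNA composition, and overlapping or near-identical genes are uncertain. Names, gene order and start sequences came from RefSeq (GRCm38.p6; 24998 IDs matched, and 16 more through GENCODE).

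Genes with at least 1 RPKM in at least 3 libraries (12568) were fitted with limma 3.58.1 (R 4.3.3), as log2(RPKM + 0.5), in 1 model of 3 group means with a trended variance. Scripts were tested on simulated data. Depth was estimated by taking the values of genes seen in few libraries as 1 read. For neighbouring genes, the median shift of the 50 nearest tested genes was subtracted.

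The 10 genes, the 17 other lists and the tests were chosen with earlier results of these data known. Besides the 10 genes, the text names all eIF2 kinases, the 3 genes nearest to Atf4 and, per list, up to 3 called genes of largest mean absolute change.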

Additional observations from a re-analysis of the deposited data

Results flagged for a closer look

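For 7 of the 10 genes the clones differed from each other by the direct test, clone 19 against clone 1. On the log2 scale the differences were 0.59 for Ddit4, 0.57 for Chac1, 0.30 for Trib3, 0.30 for Sesn2, 0.19 for Atf4, 0.12 for Asns and 0.10 for Psat1, each higher in clone 19. Over all tested genes 43.0% were called in this test, 18.5% higher and 24.5% lower in clone 19. For each of the 7, every clone 1 library lay below every clone 19 library and those below every parental one. That order was found in 7.64% of tested genes. The 7 were picked by this test, so their separation is no further support. Each group is 1 clone with the same Cdk8 label, and Cdk8 RNA itself averaged 10.4 RPKM in clone 19 and 10.98 RPKM in clone 1 with overlapping libraries.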

How the results depend on the processing

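Over 570 recomputed fold changes of the 10 genes, 562 kept their direction and their side of the threshold. Many of these directions could not change, because some alternatives leave the fold change itself as it was. Those are the filters, the variance trend, the replicate block, the fit of the compared groups and the removal of a library outside the comparison. There only the call could move, so the 562 are not all separate checks of direction. The alternatives were pseudocounts of 0.1 and 1, no filter, a filter at 3 RPKM, median-ratio and quantile scaling, no variance trend, a replicate block, a fit of the compared groups alone, neighbouring genes subtracted and each library left out. Slc7a11 and Vldlr passed the filter at 3 RPKM through the parental libraries alone and so had to differ there. That setting is no support for their fall. The 2 calls lost were those of Ddit3 with neighbouring genes subtracted, and the cause was not tested. The difference of Vldlr between the clones, not called in any setting, changed sign with quantile normalization (-0.0273); with 1 library left out it ran from -0.0279 (without clone 1 replicate 3) to 0.0348 (without clone 19 replicate 3), and was -0.0135 without clone 19 replicate 1. At a 2-fold limit on the values as deposited the counts of genes lower were 1 in clone 19 and 3 in clone 1, and 0 were higher in clone 19 than in clone 1; with neighbouring genes subtracted Slc7a11 in clone 19 (-1.23) and Chac1 in clone 1 (-1.0033) also pass that limit. In the fit with a replicate block all 10 genes stayed lower in both clones, and 8 were higher in clone 19 than in clone 1, Slc7a11 added (adjusted p = 0.0328, limma). Same-numbered libraries deviated together weakly (r from -0.035 to 0.123, over 0.1 in 1 of 9 pairs). Of 18 best matches, 10 had the same number. Weak correlations over so few libraries cannot show whether the numbers pair the samples. With each library left out in turn, the count of genes lower stayed at 10 in both clones, and the count higher in clone 19 ran from 7 to 8. The 3 calls gained were all of Slc7a11 between the clones. RPKM carry no read totals, so counting error is not known for low genes such as Slc7a11 and Vldlr.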
